A study of Rattus norvegicus with 13 samples.

Results

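Hox genes lie in 4 clusters, and several microRNA (miRNA) genes lie between them, among them those of the miR-196 and miR-10 families. The miRNAs described here are the 5 products of these genes that the array names rno-miR-196a, rno-miR-196b, rno-miR-196c, rno-miR-10a-5p and rno-miR-10b. They were chosen by name, out of 677 rat miRNAs on an Agilent 1-colour array that was hybridised once for each of 13 animals. They were read by 12 of the 1644 probes, and all 5 were among the 176 miRNAs detected on at least 6 arrays and tested.

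The fat came from adult female Sprague Dawley rats in 2 groups. The HFD group was 6 daughters of fathers on high-fat pellets (43% as fat), and the Control group was 7 daughters of fathers on standard chow (9% as fat). Both groups had mothers on chow, were themselves weaned onto chow at 3 weeks, and gave their fat at 14 weeks. Mating took place when the fathers were 15 weeks old, and those on the high-fat diet were heavier and glucose intolerant. Daughters of HFD fathers were described as glucose intolerant, with weight and adiposity like those of Control daughters, so the comparison asks whether miRNAs in a daughter's fat differ with what her father ate. Each array carries its own animal number. The labels give no fat depot, litter or father, so sisters could not be modelled and p-values rest on the spread between single animals.

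A miRNA is a short RNA that binds messenger RNAs mainly through its seed, bases 2 to 8 from its 5′ end, and lowers their output. Hox genes set position along the body axis, and fat of different depots keeps different patterns of them in human and mouse. miR-196 pairs with messenger RNAs of Hox genes, and mouse work on white fat progenitors places miR-196a upstream of Hoxc8 in the formation of brown-like adipocytes. miR-10b is known to lower HOXD10 in human cells.

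The mature sequences are printed because they show which members share a seed and how little separates the miR-196 forms that the probes had to tell apart. They are those of RefSeq on rat build GRCr8, where all 5 members were matched, written 5′ to 3′ with the seed in capitals.
miR-196a: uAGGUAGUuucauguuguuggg
miR-196b: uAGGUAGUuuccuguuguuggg
miR-196c: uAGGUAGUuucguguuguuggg
miR-10a-5p: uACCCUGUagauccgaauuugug
miR-10b: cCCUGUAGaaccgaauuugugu
let-7a-5p: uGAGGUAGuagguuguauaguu
miR-100-5p: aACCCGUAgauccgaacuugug
The 3 miR-196 forms had 1 seed, AGGUAGU, which no other of the 693 rat mature miRNAs in the RefSeq table had. They differed at 1 base, counted from the 5′ end: A12C between miR-196a and miR-196b, A12G between miR-196a and miR-196c, and C12G between miR-196b and miR-196c. The letters of the miR-196 seed also stand in let-7a, but at bases 3 to 9. The mature miR-10b of RefSeq starts 2 bases later than miR-10a when both are lined up, so their seeds differ as written. Over the 21 bases they then share, the single difference is U12A, counted along miR-10a. The 2 hairpin bases before miR-10b are ua, the letters that open miR-10a. Read from those bases on, miR-10b would have the same seed as miR-10a. miR-100, a relative of miR-10 outside the Hox clusters, shares the run guagauccgaa with miR-10a. Probe sequences were not used here, so how far the probe of one miR-196 form also binds the others was not tested.

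The hairpins lie in all 4 Hox clusters of the rat genome (GRCr8). The miR-196a hairpin is at chr7:135988876-135988985 on the plus strand, between Hoxc10 and Hoxc9. That of miR-196b is at chr4:82661101-82661185 on the minus strand, between Hoxa9 and Hoxa10. The Hoxb cluster holds both miR-196c, at chr10:81727551-81727630 between Hoxb13 and Hoxb9, and miR-10a, at chr10:81779709-81779818 between Hoxb5 and Hoxb4, each on the plus strand and 52.1 kb apart. The miR-10b hairpin is at chr3:80035859-80035967 on the plus strand, inside the annotated Hoxd4 gene.

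Between 155 and 196 miRNAs were detected per array, and 0 spots were saturated. The 13 arrays were on 2 slides, the first with 4 HFD and 4 Control arrays and the second with 2 HFD and 3 Control arrays. The array labelled Control 658 stood apart. On it a list of 6 miRNAs known from smooth muscle and connective tissue cells (miR-145, both miR-199a strands, miR-214, miR-221 and miR-222) summed to a scaled signal of 4.40, against 1.65 to 2.42 on the other 12 arrays. All 6 were tested, none passed, and their sums were 1.65 to 2.12 in HFD and 1.92 to 4.40 in Control daughters. A list of 5 skeletal muscle miRNAs summed to 13.3 on HFD 629, 11.4 on Control 662 and 7.51 on Control 664, against 0.131 to 0.849 on the other 10 arrays. Of these 5, 3 were tested and none passed. All 9 miRNAs of a list known to be abundant in fat were detected. Lists of other tissues held detected miRNAs too, so this does not test the tissue label. Results that rest on these arrays are given with and without them.

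Levels below are log2 of the scaled probe signal. Scaling set each array's bright probes to a common 75th percentile, so that 0 marks a signal as strong as that percentile. A fixed floor of -5.66 stands in for any weaker signal. No order of levels between miRNAs is given, since each probe has a brightness of its own. In fat as a whole, fewer cells of a type and less RNA per cell cannot be told apart.

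No member passed the test of the father's diet: 0 of the 5 had an adjusted p under 0.05, and so had 0% of the 176 tested miRNAs (limma, Benjamini-Hochberg adjustment). At an unadjusted p under 0.05 the count was 2 of 176, or 1.14%, and neither was a member. The mean was higher in HFD than in Control for 4 of the 5 members, and for 91 of all 176 tested miRNAs, or 51.7%. Without Control 658 it was higher for 2 of the 5 members and for 84 of the 176, or 47.7%. The 3 miR-196 forms ranked 7th, 12th and 16th of the 176 by SD over all 13 arrays, and 14th, 32nd and 23rd without Control 658. Over all 13 arrays the miR-10 pair lay in the middle of that order, at 107th for miR-10a-5p and 99th for miR-10b. Without Control 658 they were 92nd and 139th.

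**Figure D1:**
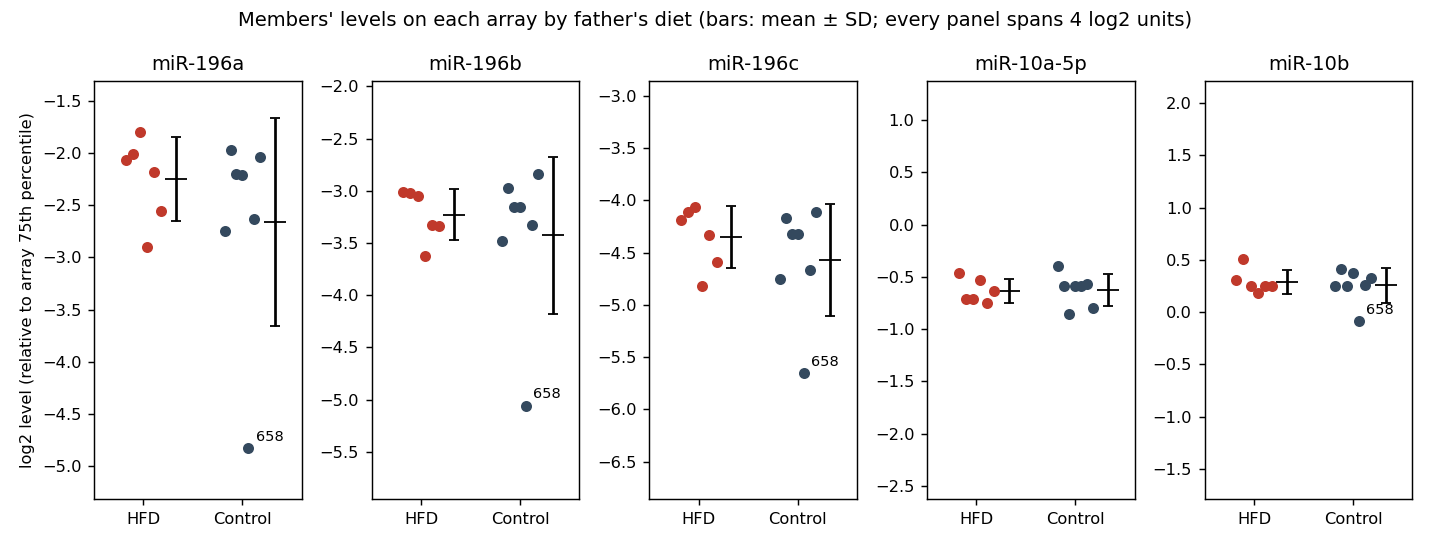
Log2 level (vertical axis, relative to the array's 75th percentile) of each member on each array, HFD in red and Control in blue, with mean ± SD beside the points; every panel spans 4 log2 units but starts at its own level. Control 658 lies apart from the other arrays for the 3 miR-196 forms and lowest for miR-10b, and, unmarked there, sits within the range for miR-10a-5p at -0.59.

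miR-196a, the Hoxc cluster member, lay at -2.90 (HFD 629), -2.12 and -1.79 (HFD 624) as the lowest, median and highest level in HFD daughters, and at -4.83 (Control 658), -2.21 and -1.97 (Control 627) in Control daughters. The groups overlapped over nearly their whole range, and a single Control animal lay far below all others. HFD daughters averaged -2.25 ± 0.40 (SD, n = 6) and Control daughters -2.66 ± 1.0 (SD, n = 7). The difference was 0.41 ± 0.41 (SE), or 1.33-fold with a 95% interval of 0.721 to 2.45, and an adjusted p of 0.966 in limma (unadjusted p = 0.332). An exact two-sided permutation test over all 1716 splits of the arrays gave p = 0.462. Of the 6 HFD levels, 5 lay above the Control mean and 4 above the Control median.

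Without Control 658 the Control mean of miR-196a was -2.30 ± 0.32 (SD, n = 6), and the difference was 0.050, or 1.04-fold with a 95% interval of 0.771 to 1.39 (limma, adjusted p = 0.98). Changes within that interval are not excluded by these arrays. With the slide as a block the difference was 0.38 over all arrays. It was -0.074 on the first slide and 1.13 on the second, where Control 658 was 1 of 3 Control arrays, and 0.30 on the second slide without that array. No slide alone passed the threshold.

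miR-196b, the Hoxa cluster member, ran from -3.62 (HFD 629) over a median of -3.19 to -3.02 (HFD 619) in HFD daughters, and from -5.06 (Control 658) over -3.16 to -2.84 (Control 664) in Control daughters. The HFD animals lay inside the Control range only because Control 658 set its low end. The next lowest Control level, -3.48 (Control 622), was above that of HFD 629. The medians were nearly equal. The means were -3.23 ± 0.24 in HFD (SD, n = 6) and -3.43 ± 0.75 in Control (SD, n = 7), a difference of 0.20 ± 0.30 (SE; 95% interval -0.45 to 0.85; limma adjusted p = 0.976). Without Control 658 the sign turned, to -0.076 with an interval of -0.36 to 0.20. On the first slide alone it was -0.14 and on the second alone 0.72, or 0.063 without Control 658.

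miR-196c is encoded in the Hoxb cluster. Its lowest, median and highest levels were -4.82 (HFD 629), -4.26 and -4.06 (HFD 624) in HFD, against -5.65 (Control 658), -4.32 and -4.11 (Control 664) in Control. The same HFD animal was lowest and the same Control animal stood apart as for the other forms. The means were -4.35 ± 0.30 in HFD (SD, n = 6) and -4.57 ± 0.53 in Control (SD, n = 7), a difference of 0.22 ± 0.23 (SE; 95% interval -0.28 to 0.72; limma adjusted p = 0.966), or 0.041 without Control 658. One of its 4 probes was never well above background and lay at the floor on all 13 arrays, which pulls its averaged differences toward 0. With the floor lowered 4 times the difference was 0.33, still with an adjusted p of 0.966. Within the first slide it was -0.061, within the second 0.66, and within the second without Control 658 it was 0.24.

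miR-10a-5p, the other Hoxb cluster member, had a narrow range. HFD levels lay at -0.75 (HFD 660), -0.67 and -0.47 (HFD 619) as the lowest, median and highest, and Control levels at -0.86 (Control 631), -0.59 and -0.40 (Control 622). The group means were the same to 2 digits, -0.63 ± 0.12 in HFD (SD, n = 6) and -0.63 ± 0.15 in Control (SD, n = 7). The difference was -0.0091 ± 0.075 (SE), or 0.994-fold with a 95% interval of 0.887 to 1.11 (limma, adjusted p = 0.996). Control 658, at -0.59, was the Control median, and leaving it out gave -0.0033. The difference was -0.050 on the first slide and 0.060 on the second.

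miR-10b, from the Hoxd cluster, had a level above the scaling percentile on all arrays but Control 658. This level averages 2 probes that lay on either side of the percentile. Scaled so that the percentile is 1, the dimmer probe had 0.670 to 0.983 over all arrays. The brighter probe had 1.33 to 2.20, with its lowest value on Control 658. Its HFD levels were 0.18 (HFD 629), 0.25 and 0.51 (HFD 620) as the lowest, median and highest, against -0.085 (Control 658), 0.26 and 0.42 (Control 627) in Control. The means were 0.29 ± 0.11 in HFD (SD, n = 6) and 0.26 ± 0.16 in Control (SD, n = 7). The difference was 0.037 ± 0.078 (SE), or 1.03-fold with a 95% interval of 0.912 to 1.15 (limma, adjusted p = 0.983), and -0.020 without Control 658. On the first slide it was -0.087 and on the second 0.24, or 0.12 without Control 658.

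**Figure D2:**
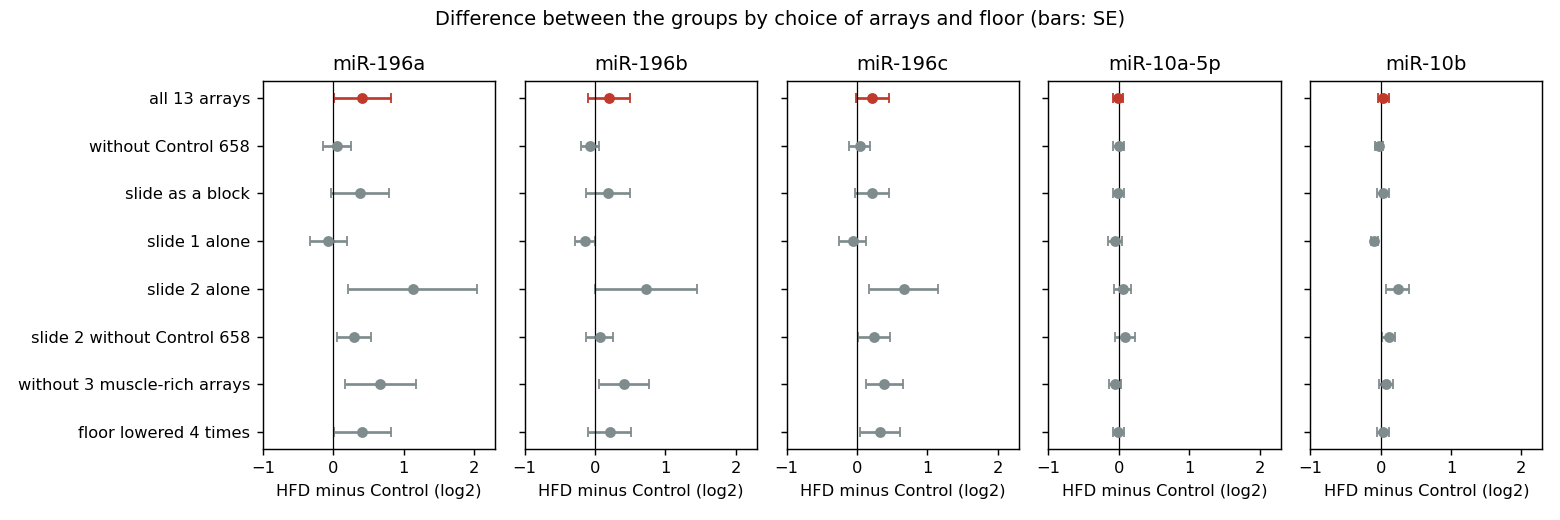
HFD minus Control difference in log2 level (horizontal axis) with its SE, for each member, over all 13 arrays (top, red) and under 7 other choices of arrays, slide and floor (grey). The miR-196 differences lie near 0.4 or 0.2 over all arrays, near 0 without Control 658 and highest on slide 2 alone, while those of miR-10a-5p stay within 0.1 of 0.

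The low level of the miR-196 forms on Control 658 was present on each of the 7 probes that detected them on other arrays, of which 6 were well above background on Control 658 itself. The signals of the pair of miR-196a probes were 67.1 and 74.4 on that array, against 267 to 528 and 287 to 542 on the other 12. Both were well above background in 100% of their spots on Control 658. Their spots varied by 9.04% and 8.21% there (coefficient of variation), against medians over all arrays of 6.41% and 6.09%. On Control 658 the spots varied by 19.3% and 4.08% for the miR-196b probes and by 12.2% and 13.9% for the pair of miR-196c probes well above background. After scaling, the mean of the other 12 arrays was 6.19 and 5.86 times that of Control 658 for the miR-196a probes. For miR-196b the ratios were 3.73 and 3.99, and for the miR-196c probes well above background on Control 658 they were 4.08 and 4.34. The other miR-196c probe that was detected elsewhere had 20% of its spots well above background on Control 658 and gives no ratio. For the probes of miR-10b they were 1.23 and 1.40, and for those of miR-10a 0.961 and 0.989. One miR-196b probe and 3 of the 4 miR-196c probes were at the floor on Control 658, so levels there are upper limits for these forms. With the floor lowered 4 times, the level on Control 658 was -5.12 for miR-196b and -6.33 for miR-196c.

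**Figure D3:**
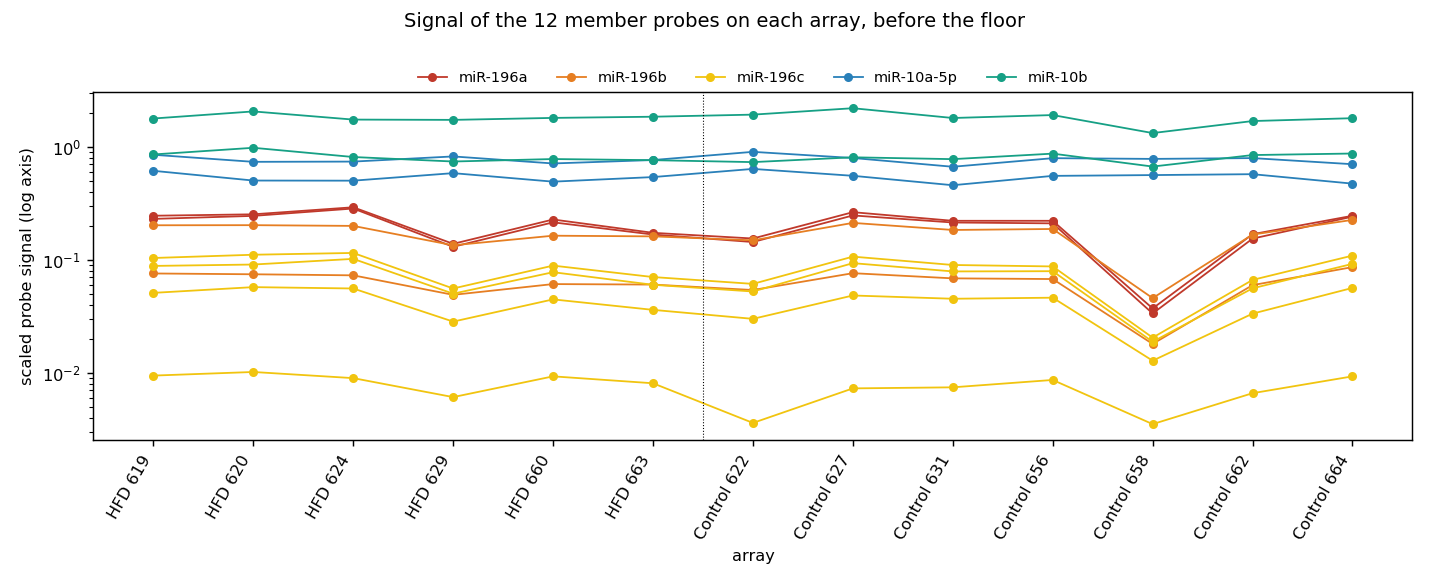
Scaled signal of each of the 12 member probes before the floor (vertical axis, logarithmic) on each array, HFD arrays left of the dotted line and Control arrays right of it; colours mark the miRNA. The 7 miR-196 probes that were detected on other arrays are lowest on Control 658, and the lowest line is the miR-196c probe that was never well above background.

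Set against all 176 tested miRNAs, the gap between Control 658 and the mean of the other 12 arrays placed the miR-196 forms at one end. miR-196a, at -2.55, had the lowest gap of all, followed by miR-338 at -2.39, miR-196b at -1.86 and miR-196c at -1.28. miR-10b was 11th at -0.39, and miR-10a-5p, at 0.043, was in the middle. The other end was held by miR-145 at 2.41 and miR-143 at 2.31, which a single transcript encodes and which mark smooth muscle, then by miR-221 at 1.93, miR-222 at 1.75 and miR-199a-5p at 1.36. miR-222 was detected on 8 of the 13 arrays and had floored levels throughout the HFD group, which makes its gap a lower bound. The list of 9 fat miRNAs, which holds miR-143, summed to 25.0 on Control 658 and 12.9 to 15.2 on the other arrays. The part that the cell makeup of this sample, its fat depot or its RNA has in the low miR-196 was not tested.

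**Figure D4:**
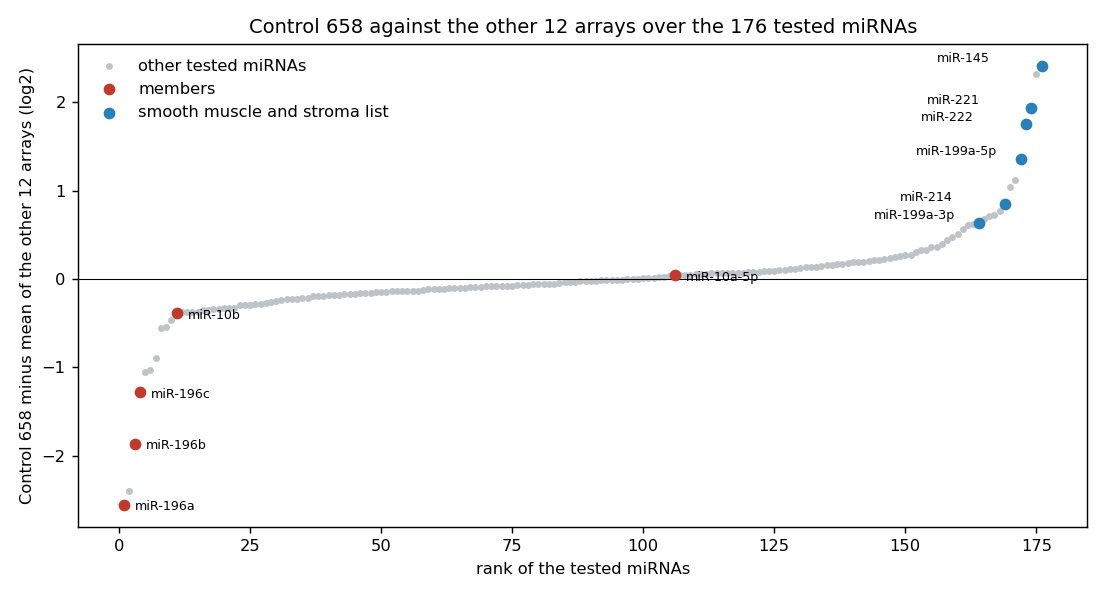
Control 658 minus the mean of the other 12 arrays in log2 level (vertical axis) for the 176 tested miRNAs in rank order (horizontal axis), with the 5 members in red and the smooth muscle and stroma list in blue. The 3 miR-196 forms lie at the low end between -2.55 and -1.28, miR-10a-5p lies at 0.043, and the blue points lie at the high end.

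Apart from Control 658, the lowest miR-196a and miR-196c levels were on HFD 629, Control 622, Control 662 and HFD 663. miR-196a was at -2.90 and -2.55 on the HFD pair and at -2.75 and -2.63 on the Control pair. HFD 629 and Control 662 were the arrays with the highest muscle miRNA sums, but Control 664, the next, had a miR-196a level of -2.04 and the highest miR-196b level of all. Without the 3 arrays of high muscle miRNAs the HFD minus Control differences were 0.67 for miR-196a, 0.41 for miR-196b, 0.39 for miR-196c, -0.053 for miR-10a-5p and 0.074 for miR-10b, none past the threshold (lowest adjusted p in limma 0.659). HFD 663 and HFD 629 also had the highest sums of 7 neural miRNAs, 0.481 and 0.406, against 0.203 to 0.345 on the other 11 arrays. Only 3 of the 7 were tested, none passed, and miR-124 was detected on 0 arrays. The part of muscle or nerve in the level of miR-196 within these 4 arrays was not tested.

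The miR-196 forms varied together across the 13 arrays. Pearson's r was 0.98 between miR-196a and miR-196b, 0.98 between miR-196a and miR-196c, and 0.96 between miR-196b and miR-196c, with Spearman's rho of 0.87, 0.97 and 0.89. For each r the permutation p over 100000 draws was 1e-05, the smallest these draws can give, and 3.33e-05 after adjustment over the 10 pairs of members. Without the 2 arrays farthest from the median of miR-196a, Control 658 and HFD 629, r was 0.84, 0.99 and 0.90. Within the first slide (n = 8) it was 0.93, 1.0 and 0.94, and the second slide with 5 arrays was too small for a value. The probes of these forms may share signal, as the sequences above show, and all values of an array share its scaling.

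The relations of miR-10b with the miR-196 forms were closest when Control 658 was included. Over 13 arrays r was 0.85 with miR-196a, 0.87 with miR-196b and 0.86 with miR-196c (rho 0.66, 0.82 and 0.69). After adjustment the permutation p-values were 0.0021, 0.00102 and 0.00102 for r, and 0.0268, 0.00275 and 0.0212 for rho. Without Control 658 r was 0.56, 0.65 and 0.61 (rho 0.57, 0.77 and 0.61). The adjusted permutation p-values of r, 0.088, 0.0541 and 0.0616, no longer passed the threshold. Before adjustment these permutation p-values were 0.0528, 0.0216 and 0.0308. No p-value of rho is given without that array. Without both Control 658 and HFD 629 r was 0.44, 0.55 and 0.51. The first slide gave 0.54, 0.73 and 0.56 (n = 8).

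miR-10a-5p did not vary with any other member beyond the threshold. Its r was -0.31 with miR-196a, -0.26 with miR-196b, -0.39 with miR-196c and -0.14 with miR-10b (rho -0.44, -0.30, -0.49 and -0.022). The lowest adjusted permutation p was 0.274 for r and 0.126 for rho. Without Control 658 r was -0.53, -0.45, -0.54 and -0.12, with a lowest adjusted permutation p of 0.0961. Without the 2 farthest arrays r was -0.49, -0.39, -0.50 and -0.17, and on the first slide it was -0.60, -0.48, -0.62 and 0.085. miR-196c and miR-10a come from the same Hoxb cluster, and their r was -0.39. It was -0.17 under quantile normalization and -0.030 with the percentile over all probes. miR-196c and miR-196a come from different clusters, and their r was 0.98. How far that value rests on signal shared by their probes was not tested.

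**Figure D5:**
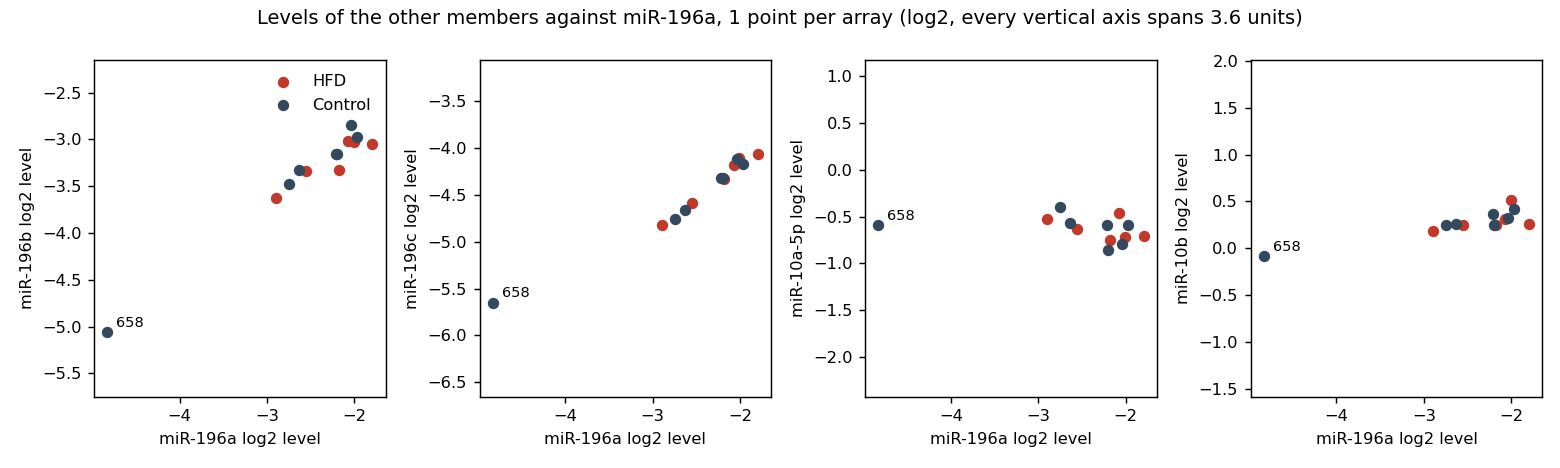
Log2 levels of the other 4 members (vertical axes, each spanning 3.6 units) against that of miR-196a (horizontal axis), 1 point per array, HFD red and Control blue. miR-196b and miR-196c follow miR-196a also without Control 658, where r is 0.89 and 0.99, against 0.56 for miR-10b and -0.53 for miR-10a-5p.

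Differences between members on the same array do not depend on the percentile by which that array is divided, except where a probe lies at the floor. The miR-196a minus miR-196b difference was 0.73 to 1.26 in HFD daughters (median 0.98) and 0.23 to 1.01 in Control daughters (median 0.80). The lowest Control value was that of Control 658, and the next lowest Control value was 0.69. The miR-196a minus miR-10b difference ran from -3.08 to -2.05 in HFD and from -4.74 to -2.36 in Control, and that of miR-10a-5p minus miR-10b from -1.22 to -0.71 in HFD and from -1.12 to -0.51 in Control. The groups overlapped in all of these, and Control 658 was at the end of the range in each.

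Among all other tested miRNAs, those most like a member across the 13 arrays were picked by Pearson's r, as a description without a test. For miR-196a they were miR-335 (0.78), miR-185 (0.76) and miR-34a (0.72), and the least like was miR-222 (-0.91). For miR-196b they were miR-185 (0.75), miR-335 (0.71) and miR-148b-3p (0.71), with miR-143 lowest (-0.92), and for miR-196c miR-148b-3p (0.81), miR-103 (0.78) and miR-335 (0.78), with miR-222 lowest (-0.82). Control 658 decided the negative values. Without it r was -0.19 between miR-196a and miR-222, -0.28 between miR-196b and miR-143 and -0.16 between miR-196c and miR-222, whose floored values limit both of its r values. Control 658 also raised some of the positive values. Without that array miR-185 had r of 0.46 with miR-196a and 0.43 with miR-196b. For miR-335 the values were 0.72, 0.53 and 0.64 with miR-196a, miR-196b and miR-196c, and for miR-34a 0.62 with miR-196a. Those of miR-148b-3p rose instead, as did that of miR-103 (0.79).

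Without Control 658 the miRNA most like miR-196a was miR-181a (0.92), and miR-148b-3p was the most like both miR-196b (0.92) and miR-196c (0.90). miR-10a-5p had other neighbours, miR-26a (0.80), miR-99a (0.80) and miR-26b (0.71), with miR-185 lowest (-0.61), and these held without Control 658 at 0.80, 0.81, 0.74 and -0.75. For miR-10b they were let-7b (0.73), miR-148b-3p (0.70) and let-7c (0.69), and miR-143 (-0.76) was lowest but had an r of -0.072 without that array.

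The other strands of the member hairpins were mostly not seen. Only miR-10b*, detected on 7 arrays, was tested, with a difference of 0.013, while miR-196a*, miR-196b*, miR-196c* and miR-10a-3p were detected on 0 of 13 arrays. miR-615, another miRNA of the Hoxc cluster, was likewise detected on 0 arrays.

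Related miRNAs did not pass the test either. The 5 relatives of miR-10 outside the Hox clusters (miR-99a, miR-99b, miR-100, miR-125a-5p and miR-125b-5p) were all lower in HFD, by a median of -0.084 with 0 past the test, against a median of 0.003 for all 176 tested miRNAs. Among all 176, 91 were higher and 85 lower. Of the 8 let-7 family members tested, 2 were higher and 6 lower in HFD (median -0.025), and 0 passed. Of 8 tested miRNAs known from brown and beige fat, 6 were higher and 2 lower (median 0.14), again with 0 past the test. Among these miR-365, which takes part in brown fat differentiation in mouse, differed by 0.14, and miR-378, whose host gene is a coactivator of energy metabolism, by 0.16. The lower pair were miR-455* at -0.089 ± 0.058 (SE) and miR-133b at -0.54 ± 1.67 (SE), the lowest difference of all 176 tested. miR-133b also belongs to the muscle list that sets 3 arrays apart.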

How the data were processed

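Total RNA of fat, 100 ng labelled with Cy3 per array, was measured on Agilent 1-colour rat miRNA arrays. Per the file headers, the authors read the arrays with Agilent Feature Extraction 10.7.3.1. Per the file headers, its spot intensity is background-subtracted and linear, and the values show no normalization across arrays. The deposited value table holds log2 of the per-miRNA total signal, blank where not detected, uncentred, which setting it against the scanner values showed. Its columns' medians were 6.95 to 7.77. RMA and Partek appear in the submitters' processing notes with no role given.

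Each probe's unflagged spots were averaged and scaled so that the 75th percentile of the 260 probes seen on every array became 1. A floor of 0.0197 was set before log2. A miRNA's probes were averaged. A probe counted as detected with at least 0.5 of its spots well above background, and a miRNA was tested when detected on at least 6 arrays. The floor is the arrays' median 1st percentile of scaled spots well above background. The number of arrays limits the precision.

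HFD was compared with Control by limma 3.58.1 in R 4.3.3 (lmFit, eBayes, two-sided) over all 176 miRNAs, adjusted after Benjamini-Hochberg with a threshold of 0.05, with exact permutation over 1716 splits as an alternative, and the pipeline was tested on simulated data. Correlations used two-sided permutation tests. Alternatives covered scaling, background, floor, filter, slide, animal number range and each array left out. Normexp used the median signals, because the files used here hold no mean signal column. The members, lists and tests were chosen with earlier results of these data known. Every member is named, with the 3 most and 1 least correlated miRNAs for each. Of the 12 lists, 4 marker lists of other tissues are not described further.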

Additional observations from a re-analysis of the deposited data

Results flagged for a closer look

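All values marked here lie on the array labelled Control 658, each with a gap to the nearest other Control array that is large for the range of its group. They are its log2 levels of miR-196a (-4.83), miR-196b (-5.06), miR-196c (-5.65) and miR-10b (-0.085), and its differences miR-196a minus miR-196b (0.23), miR-196a minus miR-10b (-4.74) and miR-196a minus miR-10a-5p (-4.24). For comparison, the next lowest Control level of miR-196a was -2.75. Floored probes limit the miR-196b and miR-196c levels and the miR-196a minus miR-196b difference. In all, 18 groups of values were looked at and 7 held such an array, where chance marks about 1 in 20 groups. These 7 are not independent, since 1 array gave all of them and 3 are differences of the levels. No HFD array was marked. Nothing in the labels sets the animal apart, and whether the array's RNA, cell makeup or depot differs was not tested.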

How the results depend on the processing

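No setting brought a miRNA past the threshold. In 23 other settings and with each of the 13 arrays left out the count was 0 of all miRNAs tested. The lowest adjusted p of any was 0.052 (limma, second slide without Control 658). That slide held only 2 HFD and 3 Control arrays before Control 658 was left out. At an unadjusted p under 0.05 in limma, the count of the 176 was 34 in that setting, 17 within each slide and 2 in the main fit. Within the first slide the differences turned to -0.074 for miR-196a, -0.14 for miR-196b, -0.061 for miR-196c and -0.087 for miR-10b. That of miR-10b was also below 0 with the total gene signal (-0.010), with array weights (-0.00023) and with the deposited table (-0.45), whose value for Control 631 was about 10 times the scanner's. That of miR-10a-5p turned to 0.060 within the second slide, 0.089 there without Control 658, and 0.0082 among animals numbered up to 631. Leaving out each array in turn gave 0.050 to 0.54 for miR-196a, -0.076 to 0.29 for miR-196b, 0.041 to 0.32 for miR-196c, -0.047 to 0.029 for miR-10a-5p and -0.020 to 0.064 for miR-10b. The 3 miR-196 lows were all without Control 658. Leave-one-out r with miR-10b was 0.56 to 0.90 for miR-196a, 0.65 to 0.93 for miR-196b and 0.61 to 0.90 for miR-196c, each lowest and past the threshold no longer without Control 658. The r of miR-10a-5p with miR-10b turned to 0.063 under quantile normalization and 0.48 with the percentile over all probes. The second-slide settings without Control 658, the lowered floor and the table without 1 value were added after seeing the data. No paired analysis was possible because the groups share no replicate numbers. Differences of miR-196c and of miR-196b on Control 658 are limited by the floor, and with 6 against 7 arrays the intervals of the miR-196 forms are wide.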

Other observations

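miR-338, a miRNA known from nerve tissue and also measured in fat, was the only tested miRNA besides miR-196a with a gap on Control 658 below -2. Its level there was -4.49, against -4.44 to 0.26 on the other 12 arrays, so unlike miR-196a it lay at the edge of a range that other arrays filled. miR-146b, a miRNA induced in inflammation, followed the miR-196 forms in that order, at -3.73 on Control 658 and -3.10 to -2.10 on the others.

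The authors' deposited value table disagreed with the scanner files for 1 value of a member. For miR-10b on Control 631 it held 33516.9 on the linear scale, where the total gene signal in that array's scanner file was 3350.2, about 10 times less. With the table as it stands the HFD minus Control difference of miR-10b was -0.45, and without that value it was 0.037. Across that table's 2569 values, 26 were more than 2e-04 away from the scanner on the log2 scale, and 24 of these by more than 1.5-fold. The cause was not tested.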
